A study of Homo sapiens with 12 samples.

Results

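The m6A machinery described here comprises 10 endogenous genes of the writers, erasers and readers of N6-methyladenosine, the most common internal modification of messenger RNA. They are METTL3, METTL14, WTAP and VIRMA (writers), FTO and ALKBH5 (erasers), and YTHDF2, YTHDF3, YTHDC1 and YTHDC2 (readers). They were chosen by gene name rather than by a cut on their values, though with earlier results of these data known. They make up 10 of the 57773 gene IDs in the deposited table. Of those IDs, 52338 were named in the GENCODE 29 annotation and 5435 were not matched. YTHDF1, the reader that the transfected vectors carry, was left out of the 10 because its reads come mostly from the vectors.

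Total RNA was sequenced from HEK293 cells, a human embryonic kidney line, and from the extracellular vesicles (EVs) that they release into the medium. The 12 libraries form 4 groups of 3: hypoxia EVs, normoxia EVs, hypoxia cells and normoxia cells. All 4 groups, the normoxia controls included, came from cells grown in 10% serum and transfected by lipofection for 48 h with vectors named 4EC1, whose listed parts are eGFP, EIF4E, YTHDF1, GBP1 and CD9. The hypoxia groups then spent 24 h in a hypoxia chamber. TRIzol was used for the cells and an exoRNeasy kit for the EVs, so compartment and extraction method cannot be told apart. An untransfected group was not analysed here, and every value below is from cells that carry a vector with an m6A reader. Whether replicates came from separate cultures is not stated, and the p-values then reflect only how far these samples spread, possibly for technical reasons.

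In the m6A pathway, writers place the mark, erasers remove it and readers bind it. METTL3 is the catalytic subunit and METTL14 its RNA-binding partner, while WTAP brings the pair to nuclear speckles and VIRMA is a scaffold of the complex. FTO and ALKBH5 are demethylases that need molecular oxygen, iron and oxoglutarate, which is why the pathway is often studied in hypoxia. YTHDF2 recruits the deadenylase complex that degrades marked mRNAs, YTHDF3 is its cytoplasmic relative, YTHDC1 acts in the nucleus on splicing and export, and YTHDC2 is an RNA helicase best known from meiosis in mouse germ cells.

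Promoter sequences are shown for METTL3, the catalytic writer, for its partner METTL14, and for ALKBH5, the eraser called higher in hypoxic cells. Each line gives the 250 bases before the start of the gene as RefSeq places it on GRCh38.p14, 5′ to 3′ on the strand of the gene. By GENCODE 29, which was used for lengths, ALKBH5 starts upstream of its window, at base 18183078, so the window lies inside that gene model. The METTL3 and METTL14 windows overlap the first bases of theirs, which start at 21511375 and 118685368. Promoters of 8 of the 10 genes were matched in that table, and VIRMA and YTHDF3 are named only. Capitals mark ACGTG or GCGTG on either strand, so a match on the other strand reads CACGT or CACGC. These 5 letters form the core motif of the hypoxia-inducible factors, the transcription factors that build up when oxygen is low.
METTL3 (chr14:21511341-21511590, minus strand): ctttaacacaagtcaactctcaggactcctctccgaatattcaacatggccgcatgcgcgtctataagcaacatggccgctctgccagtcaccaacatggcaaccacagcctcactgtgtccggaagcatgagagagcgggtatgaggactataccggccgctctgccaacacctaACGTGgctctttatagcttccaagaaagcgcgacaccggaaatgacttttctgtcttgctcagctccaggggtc
METTL14 (chr4:118685142-118685391, plus strand): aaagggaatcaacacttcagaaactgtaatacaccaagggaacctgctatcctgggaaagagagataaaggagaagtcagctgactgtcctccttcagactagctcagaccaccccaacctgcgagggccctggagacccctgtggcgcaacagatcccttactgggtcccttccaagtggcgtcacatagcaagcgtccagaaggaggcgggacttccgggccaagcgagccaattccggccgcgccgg
ALKBH5 (chr17:18183578-18183827, plus strand): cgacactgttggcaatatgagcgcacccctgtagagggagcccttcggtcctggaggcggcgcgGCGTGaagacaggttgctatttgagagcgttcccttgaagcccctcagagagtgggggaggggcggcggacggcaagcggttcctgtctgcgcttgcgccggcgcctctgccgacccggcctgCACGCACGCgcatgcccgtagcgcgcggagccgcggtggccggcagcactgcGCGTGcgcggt
The METTL3 window held 1 ACGTG, the METTL14 window neither motif and the ALKBH5 window 4 GCGTG, of which a pair overlaps by a base. Among all 35116 promoter windows of this length, 18.5% held ACGTG, 32.2% held GCGTG and 43.2% held either. A match is a description of the letters in this window only. Of the other genes, YTHDC1 had 3 ACGTG and YTHDC2 had 1 GCGTG, while the FTO window held neither. Of the 2 windows for WTAP, 1 held 2 GCGTG and the other 1, and of the 2 windows for YTHDF2, 1 held 1 GCGTG and the other neither.

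Depth ran from 3259453 to 6129782 reads in hypoxia EVs, from 5266244 to 7001767 in normoxia EVs and from 18059381 to 23400813 in cells. All 10 genes passed the filter on low values (a mean of at least 10 over the libraries of a fit) in every comparison. Of 5 markers of HEK293, 4 were matched in the table and all 4 had a mean above 10 in each group. Olfactory receptor genes, taken as mostly silent in these cells, were used to measure reads that fall on silent genes. The 354 genes were summed, and whether each is silent in these cells was not checked. Their value per kb of exon was 8.49 ± 0.53 in hypoxia EVs, 2.98 ± 1.78 in normoxia EVs, 0.705 ± 0.133 in hypoxia cells and 0.508 ± 0.109 in normoxia cells (SD, n = 3 each). The 9 blood markers summed to 338 to 382 in hypoxia EVs, 90.4 to 259.9 in normoxia EVs, 34.6 to 39.1 in hypoxia cells and 38.2 to 41.9 in normoxia cells. In the same group order, the 8 liver and plasma markers summed to 536 to 706, 114 to 349.9, 37.6 to 81.7 and 45.8 to 60.6. A mean of at least 10 was reached in those groups by 8, 6, 1 and 1 of the 9 blood markers and by 6, 6, 2 and 1 of the 8 liver and plasma markers. Blood marker means in hypoxia EVs ran from 9.66 for HBB, the beta chain of hemoglobin, to 126 for CD74. In normoxia cells they ran from 0.184 for HBB to 25.7 for CD74. Whether these marker values exceed the reads that fall on silent genes was not tested. The part of RNA from blood or plasma in the EV results was not tested either.

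**Figure D1:**
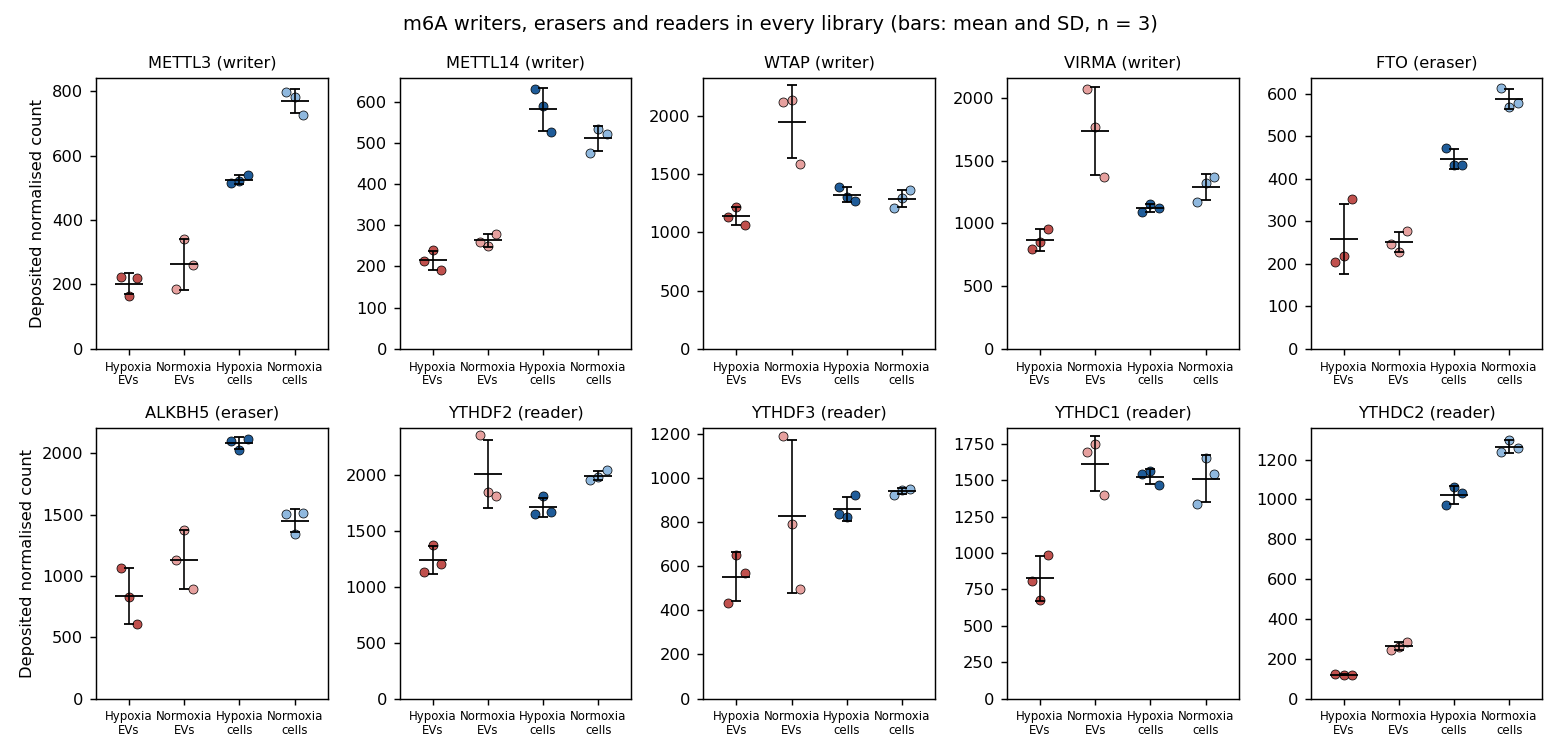
Deposited normalised count (y axis, from 0) of each of the 10 genes in all 12 libraries, by group (x axis), with points for libraries and bars for the mean and SD (n = 3). In cells, METTL3 lies lower and ALKBH5 higher in all 3 hypoxia libraries, and YTHDC2 lies far lower in the EV groups than in cells.

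The first comparison asked how 24 h of hypoxia changed the m6A genes in the cells. METTL3 fell, ALKBH5 rose, and FTO, YTHDC2, YTHDF2 and VIRMA fell by smaller amounts. The erasers moved in opposite directions, and within the writer pair METTL3 fell while METTL14 did not pass the test. Values are the deposited normalised counts (reads divided by a factor per library), and folds are differences of log2(value + 1) from limma with Benjamini-Hochberg adjustment over 17260 genes. In bulk RNA, fewer cells or vesicles of a type and less of an RNA in each cannot be told apart.

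METTL3 had 515, 522 and 541 in hypoxia cells, against 799, 784 and 726 in normoxia cells. The groups did not overlap, and every hypoxia library was below every normoxia library. The log2 fold change was -0.55 (SE 0.08, limma adjusted p = 1.31e-07), which left 68.3% of the normoxia mean. METTL14 had 629.6, 589 and 525 in hypoxia cells, against 476, 534 and 522 in normoxia cells. The groups overlapped, since the lowest hypoxia library was below the highest normoxia library, and the log2 fold change of 0.18 (SE 0.09) did not pass (limma adjusted p = 0.105). WTAP overlapped widely, with 1392, 1308 and 1269 in hypoxia cells and 1213, 1293 and 1364 in normoxia cells (log2 fold change 0.04, SE 0.07, limma adjusted p = 0.732). VIRMA had 1089, 1157 and 1123 in hypoxia cells, against 1174, 1323 and 1369.8 in normoxia cells. The groups did not overlap, but the gap was narrow, and VIRMA fell by 0.20 on the log2 scale (SE 0.07, limma adjusted p = 0.0248).

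The ratio of METTL3 to METTL14 within a library does not depend on how libraries are scaled. It was 0.818, 0.885 and 1.03 in hypoxia cells, against 1.68, 1.47 and 1.39 in normoxia cells. No hypoxia library reached the lowest normoxia value. This ratio and the others below were chosen after the values were seen, and are given without a test.

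ALKBH5, reported in other cells as a direct target of hypoxia-inducible factor, had 2101, 2026 and 2114 in hypoxia cells, against 1502, 1341 and 1510.3 in normoxia cells. Every hypoxia library was above every normoxia library. Its log2 fold change of 0.52 (SE 0.06, limma adjusted p = 6.63e-10) brought it to 143% of the normoxia mean. FTO had 473, 431 and 433 in hypoxia cells, against 614, 569.8 and 578 in normoxia cells. The groups did not overlap, and FTO fell by 0.40 on the log2 scale (SE 0.09, limma adjusted p = 0.000219), to 75.9% of the normoxia mean. Within a library, ALKBH5 was 4.44, 4.69 and 4.88 times FTO in hypoxia cells, against 2.45, 2.35 and 2.61 times in normoxia cells, with no overlap.

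Among the readers, YTHDC2 had 969.8, 1061 and 1033 in hypoxia cells, against 1237, 1298 and 1259 in normoxia cells, and the groups did not overlap. It fell by 0.31 on the log2 scale (SE 0.07, limma adjusted p = 0.000261). YTHDF2 had 1649.6, 1807 and 1668 in hypoxia cells, against 1955, 1979 and 2037 in normoxia cells. It too was lower in every hypoxia library, and fell by 0.22 (SE 0.06, limma adjusted p = 0.00371). YTHDF3 had 837, 822 and 922 in hypoxia cells and 924, 945 and 949 in normoxia cells. Its groups did not overlap either, by a gap far smaller than the spread in hypoxia cells, and the log2 fold change of -0.13 (SE 0.07) did not pass (limma adjusted p = 0.191). YTHDC1 had 1541, 1563 and 1466 in hypoxia cells and 1339, 1653 and 1543 in normoxia cells, a log2 fold change of 0.02 (SE 0.07, limma adjusted p = 0.89), with the hypoxia values inside the normoxia range.

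In cells, then, 1 of the 10 genes was called higher, where 8.01% of all genes tested were, and 5 were called lower, where 22.4% were. The groups did not overlap for 1 gene on the higher side, against 12.7% of all genes, and for 6 on the lower side, against 27.6%. The median log2 fold change was -0.16 over the 10 genes and -0.07 over all genes. Raising the minimum mean from 10 to 50 left 12016 genes and took the all-gene median to -0.12. Of these, 1081 were called higher and 3999 lower, and the median of the 10 genes stayed at -0.16. With each library scaled to an equal total, the median of all genes was 0.06. Under that scaling METTL3 (-0.42), FTO (-0.27) and YTHDC2 (-0.18) still fell and ALKBH5 (0.65) still rose. METTL14 (0.31, limma adjusted p = 0.00596) and WTAP (0.16, limma adjusted p = 0.0481) then passed as higher, and VIRMA (-0.07) and YTHDF2 (-0.10) no longer passed. VIRMA also lost its call without hypoxia cell replicate 1 or 3, or without normoxia cell replicate 2 or 3 (limma adjusted p from 0.0563 to 0.138), and METTL14 passed without hypoxia cell replicate 3 (0.26, limma adjusted p = 0.0415). In a single limma fit of all 12 libraries 0 of the 10 passed (2 at an unadjusted p under 0.05).

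**Figure D2:**
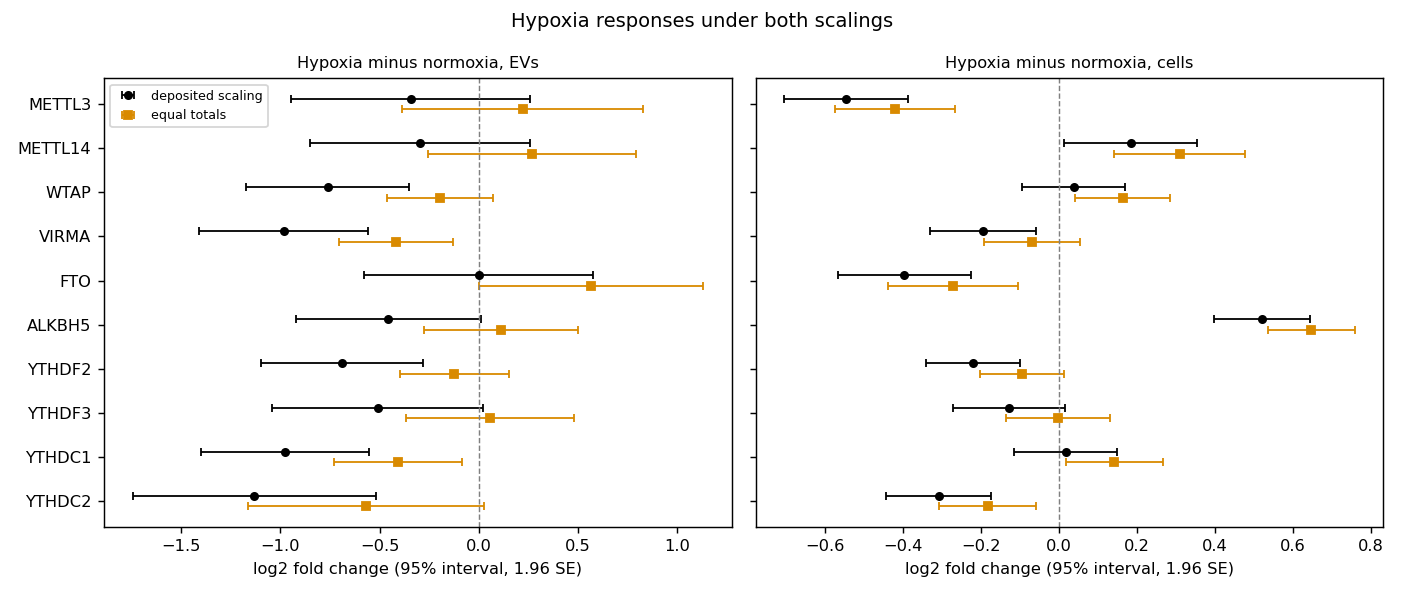
Log2 fold change of hypoxia over normoxia (x axis, with 95% intervals) for each gene (y axis), in EVs (left) and cells (right), under the deposited scaling (black circles) and equal totals (orange squares). In cells METTL3 and ALKBH5 stay on their own sides of 0 under both scalings, while in EVs the points move to the right under equal totals.

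Some reads of these genes may belong to neighbours, since the sources used here do not say how strand was treated in counting. METTL3 shares 388 exon bases with TOX4 on the opposite strand, which had means of 774 in hypoxia cells and 952 in normoxia cells. WTAP shares 298 exon bases with SOD2 on the opposite strand, which had means of 883 in hypoxia cells and 1161 in normoxia cells. ALKBH5 shares 357 exon bases with the antisense gene AC087164.1, which had means of 0.891 in hypoxia cells and 2.27 in normoxia cells. In EVs, TOX4 had means of 284 in hypoxia and 416 in normoxia, both above those of METTL3 (202 and 263), and SOD2 had 452 and 593. AC087164.1 had 18.0 in hypoxia EVs and 14.9 in normoxia EVs. The pseudogenes WTAPP1, FTOP1 and YTHDF2P1 had means below 10 in both cell groups. In hypoxia EVs and normoxia EVs, WTAPP1 had means of 28.4 and 22.4, FTOP1 of 10.8 and 13.8, and YTHDF2P1 of 6.88 and 0.651. The transfected YTHDF1 shares at most 20 identical bases in a row with YTHDF2 and 17 with YTHDF3, so a read longer than that cannot match both without a mismatch.

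The second comparison asked the same of the EVs. With the deposited scaling, WTAP, VIRMA, YTHDF2, YTHDC1 and YTHDC2 fell in hypoxia EVs, while METTL3, METTL14, FTO, ALKBH5 and YTHDF3 did not pass. These 5 calls depended on the scaling of the libraries.

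WTAP had 1134, 1219 and 1067 in hypoxia EVs, against 2122, 2137 and 1589 in normoxia EVs. VIRMA had 792, 851 and 958 in hypoxia EVs, against 2074, 1766 and 1368 in normoxia EVs. For both writers every hypoxia library was below every normoxia library, and normoxia EV replicate 3 was the lowest of its group. WTAP fell by 0.76 on the log2 scale (SE 0.21, limma adjusted p = 0.0282) and VIRMA by 0.98 (SE 0.22, limma adjusted p = 0.0154). METTL14, at 214, 239 and 192 in hypoxia EVs and 259, 250.4 and 279 in normoxia EVs, did not overlap between groups either, but its log2 fold change of -0.30 did not pass (SE 0.28, limma adjusted p = 0.445). METTL3 overlapped, with 223, 164 and 219 in hypoxia EVs and 186, 342 and 259.9 in normoxia EVs (log2 fold change -0.34, SE 0.31, limma adjusted p = 0.413).

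The erasers did not pass in EVs. FTO had 204, 218 and 353 in hypoxia EVs and 247, 229 and 278 in normoxia EVs, with hypoxia EV replicate 3 above the rest. Its log2 fold change was 0.00, with a 95% interval from -0.58 to 0.58. In hypoxia EVs FTO, at 9.56 to 16.5 per kb of exon, lay near the olfactory receptor density. After subtraction of that density it was 3.59 ± 3.38 in hypoxia EVs and 8.77 ± 1.15 in normoxia EVs (SD, n = 3 each). With totals then made equal, its log2 fold change was -1.05 (limma adjusted p = 0.368), or 0.05 by transcript length. ALKBH5 had 1067, 829.7 and 608 in hypoxia EVs and 1132, 1371 and 895 in normoxia EVs, which overlapped (log2 fold change -0.46, SE 0.24, limma adjusted p = 0.171).

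YTHDF2 had 1130.1, 1373 and 1206 in hypoxia EVs, against 2353, 1845 and 1812 in normoxia EVs. YTHDC1 had 811, 681 and 986 in hypoxia EVs, against 1696, 1748 and 1401 in normoxia EVs. YTHDC2 had 122, 117 and 119 in hypoxia EVs, against 245, 259 and 283 in normoxia EVs. In none of these readers did the groups overlap. YTHDF2 fell by 0.69 (SE 0.21, limma adjusted p = 0.0377), YTHDC1 by 0.98 (SE 0.22, limma adjusted p = 0.0155) and YTHDC2 by 1.13 on the log2 scale (SE 0.31, limma adjusted p = 0.0288). The YTHDC2 values in hypoxia EVs rest on 47 to 91 reads a library. At 10.8 to 11.2 per kb of exon they lay close to the mean of 8.49 measured on olfactory receptor genes in that group. YTHDF3 spread most, with 434, 652 and 570.0 in hypoxia EVs and 1187, 793 and 494 in normoxia EVs (log2 fold change -0.51, SE 0.27, limma adjusted p = 0.178).

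Of the 10 genes, 0 were called higher in EVs, against 5.68% of all 27904 genes tested, and 5 were called lower, against 6.62%. The count at an unadjusted p under 0.05 was 5 for both directions together, and edgeR and DESeq2 on recovered reads also called 0 higher. The groups did not overlap on the lower side for 6 genes, against 14.5% of all genes, and on the higher side for 0, against 23.4%. The median log2 fold change was -0.60 over the 10 genes and 0.60 over all genes. The sign of the all-gene median depended on the filter. Raising the minimum mean from 10 to 50 left 15260 genes, with a median of -0.15. Of these, 1464 were called higher and 2378 lower, and the median of the 10 genes stayed at -0.60. With equal totals the median of all genes was 1.13, that of the 10 genes was -0.03, and 0 of the 10 passed in limma (2 at an unadjusted p under 0.05). With the olfactory receptor density subtracted from each library and totals then made equal, again 0 passed (3 at an unadjusted p under 0.05). The number called lower was also 0 without normoxia EV replicate 2 or without any one of the 3 hypoxia EV libraries, 2 (VIRMA and YTHDC1) without normoxia EV replicate 1 and 7 without normoxia EV replicate 3.

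The third comparison set EVs against the cells that release them, over all 12 libraries. YTHDC2 stood lowest in EVs relative to cells, followed by METTL3, METTL14, FTO and ALKBH5. WTAP and VIRMA did not pass the test. Taking all 12 libraries, 8 of the 10 genes were lower in EVs, where 31.8% of all 24171 genes tested were, and 0 were higher, where 43.1% were (10 genes with 8 at an unadjusted p under 0.05; edgeR called 0 higher and DESeq2 1, WTAP). EV and cell libraries did not overlap for 4 of the 8, METTL3, METTL14, FTO and YTHDC2, where 21.3% of all genes lay lower in this way, and for 0 on the higher side, where 19.8% did.

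YTHDC2 had a mean of 119 ± 2.22 in hypoxia EVs and 263 ± 19.4 in normoxia EVs, against 1021 ± 46.6 in hypoxia cells and 1265 ± 31.2 in normoxia cells (SD, n = 3 each). It fell by 2.68 on the log2 scale (SE 0.11, limma adjusted p = 1.87e-13), leaving 11.7% of the cell mean in hypoxia and 20.8% in normoxia. With the olfactory receptor density subtracted, its level per kb of exon was 2.52 ± 0.54 in hypoxia EVs, against 93.7 ± 4.44 in hypoxia cells (SD, n = 3 each). With totals then made equal, its log2 difference of EVs from cells was -3.63, or -3.04 by transcript length. Its nuclear relative YTHDC1 fell by 0.40 over both conditions (SE 0.11, limma adjusted p = 0.00273), with EVs at 54.2% of the cell mean in hypoxia but 107% in normoxia. The ratio of YTHDC2 to YTHDC1 was 0.150, 0.172 and 0.1202 in hypoxia EVs and 0.144, 0.148 and 0.202 in normoxia EVs. It was 0.629, 0.679 and 0.705 in hypoxia cells and 0.924, 0.786 and 0.816 in normoxia cells. All EV libraries lay far below all cell libraries on this measure.

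Of the writers, METTL3 fell by 1.49 (SE 0.14, limma adjusted p = 1.78e-08) and METTL14 by 1.19 in EVs (SE 0.12, limma adjusted p = 2.61e-08). In hypoxia, EVs held 38.5% of the cell mean of METTL3 and 37.0% of that of METTL14, and in normoxia 34.1% and 51.5%. WTAP, in contrast, had a log2 difference of 0.18 (95% interval -0.02 to 0.38, limma adjusted p = 0.108) and VIRMA one of 0.02 (-0.20 to 0.23, limma adjusted p = 0.892). For WTAP all 3 normoxia EV libraries lay above all 3 normoxia cell libraries, and all 3 hypoxia EV libraries below all 3 hypoxia cell libraries. The value for VIRMA also averages opposite differences, with EVs at 135% of the cell mean in normoxia and 77.2% in hypoxia. All 3 hypoxia EV libraries lay below all 3 hypoxia cell libraries for VIRMA, while those of normoxia overlapped. WTAP passed as higher with equal totals (0.23, limma adjusted p = 0.00625) and without normoxia EV replicate 3 (0.25, limma adjusted p = 0.00439).

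FTO fell by 1.03 in EVs (SE 0.14, limma adjusted p = 1.79e-06) and ALKBH5 by 0.86 (SE 0.13, limma adjusted p = 6.86e-06). For FTO the EV mean was 57.9% of the cell mean in hypoxia and 42.8% in normoxia, and for ALKBH5 40.1% and 78.1%. In normoxia the EV and cell libraries overlapped for ALKBH5. YTHDF3 fell by 0.47 (SE 0.16, limma adjusted p = 0.0127) and YTHDF2 by 0.24 (SE 0.10, limma adjusted p = 0.0387). For YTHDF2 the EV mean was 72.4% of the cell mean in hypoxia and 101% in normoxia, and for YTHDF3 64.2% and 87.8%. The YTHDF2 call was the least stable: it was lost without any one of the 6 cell libraries, without normoxia EV replicate 2, and without hypoxia EV replicate 1 or 3 (limma adjusted p from 0.0568 to 0.0954). The transfected YTHDF1 moved the other way, with a mean of 674781 in hypoxia EVs and 1117995 in normoxia EVs, against 259752 in hypoxia cells and 252478 in normoxia cells (log2 difference 1.76, SE 0.26, limma adjusted p = 5.42e-06). The median log2 difference was -0.67 over the 10 genes and 0.32 over all genes. Here too the all-gene median changed sign with the filter. Raising the minimum mean from 10 to 50 left 13674 genes, with a median of -0.41. Of these, 3667 were called higher and 6999 lower, and the median of the 10 genes stayed at -0.67. The 10 genes together took 0.0757% of reads in hypoxia EVs and 0.0835% in normoxia EVs, against 0.113% in hypoxia cells and 0.107% in normoxia cells.

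**Figure D3:**
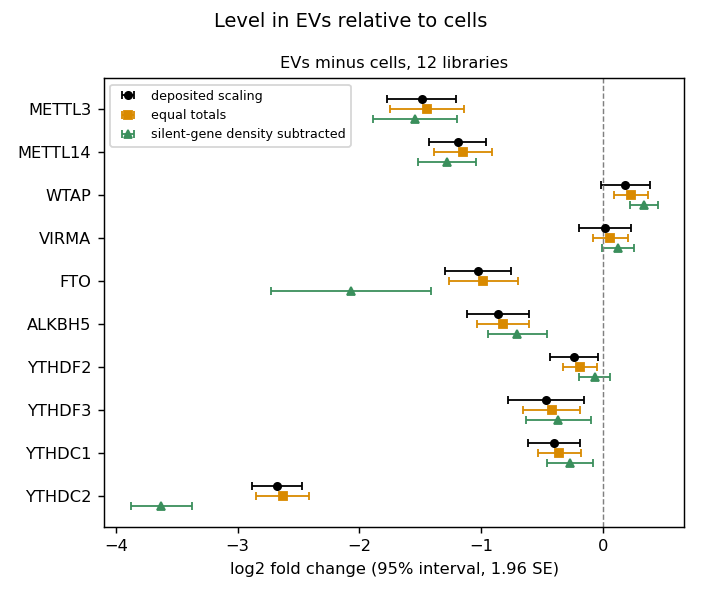
Log2 difference between EVs and cells (x axis, with 95% intervals) for each gene (y axis). Settings are the deposited scaling (black circles), equal totals (orange squares) and olfactory receptor density subtracted before equal totals (green triangles). YTHDC2 lies at -2.68 under the deposited scaling and WTAP and VIRMA near 0, as averages over both conditions. FTO and YTHDC2 move farthest when the density is subtracted.

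The fourth comparison tested whether the hypoxia response in EVs differed from that in cells. In a fit that pools the spread of cell and EV libraries, it did for WTAP (-0.80, SE 0.20, limma adjusted p = 0.0439), YTHDC1 (-0.99, SE 0.22, limma adjusted p = 0.0274) and YTHDC2 (-0.82, SE 0.21, limma adjusted p = 0.0467), each lower in the EV response on the log2 scale. That made 3 of the 10 genes lower, where 1.87% of all genes tested were, and 0 higher, where 0.443% were (6 of 10 at an unadjusted p under 0.05; edgeR and DESeq2 also called 0 higher). ALKBH5, which rose in cells, had a difference of -0.98 that did not pass (limma adjusted p = 0.0514), and VIRMA one of -0.79 (limma adjusted p = 0.0612). For METTL3 the difference was 0.20 (limma adjusted p = 0.693) and for FTO 0.40 (limma adjusted p = 0.4). METTL14 (-0.48), YTHDF2 (-0.47) and YTHDF3 (-0.38) did not pass either. The median was -0.63 over the 10 genes and 0.23 over all genes. Raising the minimum mean from 10 to 50 turned the all-gene median to -0.16, and that of the 10 genes stayed at -0.63. Of the 13674 genes then tested, 138 were called higher and 735 lower. With equal totals 0 of the 10 passed in limma (5 at an unadjusted p under 0.05) and the median of all genes was 0.66. Only YTHDC2 passed after the olfactory receptor density was subtracted by exon length and totals were made equal (-2.24, limma adjusted p = 0.000735). That value rests on 2.52 ± 0.54 per kb of exon left in hypoxia EVs (SD), from 47 to 91 reads a library. When single libraries were left out, 0 to 7 passed. WTAP lost its call without any one library other than normoxia EV replicate 3, and YTHDC2 without any one other than normoxia EV replicate 1 or 3. YTHDC1 lost it without any one of the 6 cell libraries or replicate 2 of either EV group (limma adjusted p from 0.0522 to 0.112). The SE of the difference for YTHDC2, 0.213, was below the 0.313 of its EV response fitted alone. For WTAP these were 0.204 and 0.210, and for YTHDC1 0.220 and 0.217. A fit with a separate spread for cells and EVs was not run for this difference, so its p-values may be too small.

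In EVs the within-library ratios of the writers and erasers spread widely. METTL3 over METTL14 was 1.04, 0.688 and 1.14 in hypoxia EVs and 0.716, 1.37 and 0.930 in normoxia EVs. ALKBH5 over FTO was 5.22, 3.81 and 1.72 in hypoxia EVs and 4.58, 5.99 and 3.23 in normoxia EVs. Both ratios overlapped between the EV groups, unlike those in cells.

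**Figure D4:**
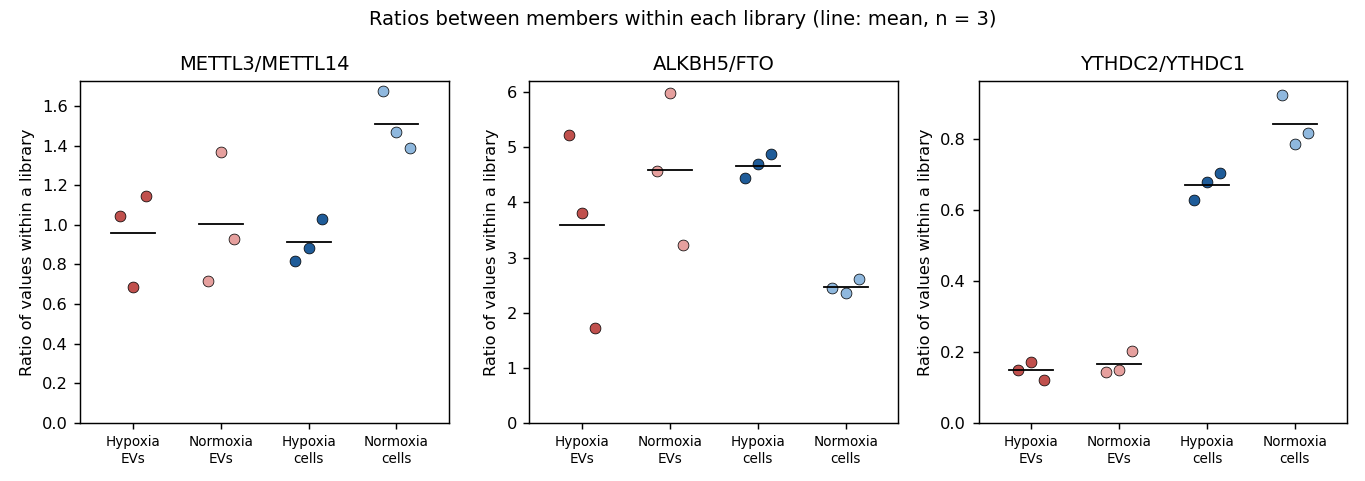
Ratio of values within each library (y axis, from 0) by group (x axis) for METTL3 over METTL14, ALKBH5 over FTO and YTHDC2 over YTHDC1, with points for libraries and lines for means (n = 3). The METTL3 over METTL14 and ALKBH5 over FTO ratios separate hypoxia cells from normoxia cells and overlap in EVs, while YTHDC2 over YTHDC1 is below 0.21 in every EV library.

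Levels of different genes were compared per kb of exon. In hypoxia cells ALKBH5 stood first at 652 ± 14.9, with YTHDF2 at 443 ± 22.3, whereas in normoxia cells YTHDF2 stood first at 516 ± 10.9, with ALKBH5 at 455 ± 29.9 (SD, n = 3 each). YTHDC1, at 217 ± 7.22 in hypoxia cells and 215 ± 22.6 in normoxia cells, overlapped with WTAP, at 206 ± 9.8 and 201 ± 11.8 in the same groups. YTHDF3 followed in both. METTL3, VIRMA and YTHDC2 lay close together in normoxia cells, where METTL3 overlapped with VIRMA and VIRMA with YTHDC2. In hypoxia cells METTL3, at 89.2 ± 2.32, overlapped with YTHDC2 at 94.4 ± 4.31 and METTL14 at 84.7 ± 7.68. FTO was lowest, at 20.9 ± 1.11 in hypoxia cells and 27.5 ± 1.09 in normoxia cells. YTHDF2 was first in both EV groups, overlapping with ALKBH5 in hypoxia EVs. The last places in EVs were those of YTHDC2 (10.8 to 11.2) and FTO (9.56 to 16.5) in hypoxia EVs, which overlapped, and of FTO (11.8 ± 1.15) in normoxia EVs. The order depends on the length used. Per kb of coding length FTO was 8 of 10 in both cell groups, ALKBH5 was first in both cell groups and WTAP was first in both EV groups.

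The transcripts themselves differ in how often they hold GGACT, the letters most often methylated by the METTL3 complex. Per kb of the longest coding transcript, GGACT occurred 1.99 times in METTL3, 1.53 in VIRMA, 1.46 in ALKBH5 and 1.20 in METTL14. YTHDF2 had 1.03, WTAP 0.821, YTHDC1 0.642, YTHDC2 0.633, FTO 0.425 and YTHDF3 0.385. Over 16800 genes the median was 0.946, with quartiles of 0.577 and 1.41. This counts letters only and gives no methylation.

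The other genes of the pathway were followed in lists that were chosen with earlier results of these data known. The methyltransferase list holds genes of other methyltransferases and of partner proteins of methyltransferases. In cells 4 of its 9 genes fell and 0 rose, with a median of -0.21. Over all genes 22.4% fell, 8.01% rose and the median was -0.07. With a minimum mean of 50, 3999 of 12016 genes fell and 1081 rose. The 4 were METTL16 (-0.37), METTL5 (-0.40), ZC3H13 (-0.21) and TRMT112 (-0.27), of which METTL16 methylates U6 and MAT2A RNA and ZC3H13 belongs to the writer complex. Of 13 other m6A-binding protein genes 11 fell, with a median of -0.30, led by LRPPRC (-0.52), HNRNPA2B1 (-0.42), HNRNPC (-0.45) and IGF2BP2 (-0.39). Of 16 genes of the proteins that readers recruit 10 fell, including SRSF3 (-0.41), CNOT7 (-0.57) and CNOT11 (-0.41). MAT2A, which makes the methyl donor, fell by 0.56, and 3 of 4 methyl donor genes fell in all. Of 7 other AlkB family genes 3 fell, ALKBH2 (-0.50), ALKBH8 (-0.39) and ALKBH3 (-0.33). In these 5 lists 0 genes rose in cells under the deposited scaling. With equal totals 1, 9, 4, 2 and 2 genes fell in the same list order, and CNOT3, CNOT8 and UPF1 of the recruited proteins' genes rose.

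In EVs relative to cells, 31.8% of all genes were called lower and 43.1% higher. With a minimum mean of 50, 6999 of 13674 genes were called lower and 3667 higher. Of the 13 other m6A-binding protein genes, 12 fell and 1, EIF3A (0.71), rose. HNRNPA2B1 fell by 2.47 and LRPPRC by 2.73 on the log2 scale. Of the recruited proteins' genes 12 of 16 fell and CNOT3 (0.87) rose. All 4 methyl donor genes fell, and of the 9 genes of the methyltransferase list 6 fell, METTL5 by 2.00. ZC3H13 (0.09) and RBM15 (0.06), partners of WTAP and VIRMA in the writer complex, did not pass, though both rose with equal totals once the construct genes were left out and after either subtraction of olfactory receptor density. Among AlkB family genes 4 of 7 fell and ALKBH4 (0.82) rose.

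In hypoxia EVs against normoxia EVs, 6.62% of all genes were called lower and 5.68% higher. With a minimum mean of 50, 2378 of 15260 genes were called lower and 1464 higher. Of the 9 genes of the methyltransferase list, 3 fell. They were ZC3H13 (-1.05), RBM15 (-0.78) and CBLL1 (-0.87), all of them subunits of the writer complex. Of the m6A-binding protein genes 5 of 13 fell, including RBMX (-0.95) and HNRNPC (-0.92), and of the recruited proteins' genes 4 of 16, including SRSF3 (-0.90). Of 7 AlkB family genes 2 fell, ALKBH8 (-1.28) and ALKBH4 (-0.86), and 0 of 4 methyl donor genes passed. With equal totals 1 gene of the methyltransferase list and 1 of the m6A-binding protein list fell and 0 passed in the other lists, and 0 passed in any of the 5 lists after either subtraction. The difference of responses passed for PRRC2A (-0.91) and CNOT3 (-0.86) in these lists. With equal totals 0 genes of the 5 lists passed in that test, and after either subtraction 0 of the m6A-binding protein list, to which PRRC2A belongs.

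Across the 12 libraries, the genes whose log2 values ran most closely with the mean of the 10 were MORF4L2 (Pearson r 0.994), BPTF (0.992) and RDX (0.991), among 10249 genes compared. The 12 points share the compartment difference and the scaling of their libraries, and the values are a description.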

How the data were processed

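HEK293 cells and their EVs were sequenced as stranded total RNA, 3 libraries in each of 4 groups assigned by title. The authors deposited a normalised signal per gene, read counts divided by a factor per library. Per the submitters' processing notes, the tools included DESeq2 1.30.1 and Bowtie 0.12.2, and GRCh38 (hg38) was the build. No source used here gives the counter, annotation or strand setting. Whole reads were recovered from each library's step (100% of values whole within 0.01 of a read). No library was a copy of another: same-group pairs had a chi-square of 5.21 to 13.9 per degree of freedom. Reads carry no molecular identifiers.

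Gene names and lengths came from GENCODE 29; RBM15B and the HEK293 marker CD24 were not matched. limma 3.58.1 (R 4.3.3) was fitted to log2(value + 1), which understates changes of low genes, for genes with a mean of at least 10, with an adjusted p threshold of 0.05. Cells and EVs were fitted apart for the hypoxia comparisons. For the others all 12 libraries were fitted together, with the spread of each gene pooled over cells and EVs. The fits were tested on simulated counts. These held no scaling shift, no silent-gene density and no difference in spread between cells and EVs, so that test does not cover such features. Alternatives were pseudocounts of 0.5 and 5, a minimum mean of 50 or none, TMM, equal totals with and without the construct genes, subtraction of olfactory receptor density, edgeR 4.0.16 and DESeq2 1.42.0 on recovered reads, a replicate block, 1 fit of all 12 libraries, and each library left out. In every fit with that density subtracted, libraries were then also scaled to equal totals, so the effect of subtraction alone is not shown. Levels per kb after subtraction were not rescaled. The subtraction by transcript length was added after seeing the data.

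All 10 genes are named in each comparison, and of other lists up to 4 called genes by smallest p. Other genes named as not passing were chosen after their values were seen. Members and lists were chosen with earlier results of these data known. Promoter windows came from RefSeq.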

Additional observations from a re-analysis of the deposited data

Results flagged for a closer look

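The hypoxia response differed between EVs and cells, by the test of the difference itself, for WTAP (log2 difference -0.80), YTHDC1 (-0.99) and YTHDC2 (-0.82). That test pools the spread of cell and EV libraries, so its p-values may be too small. For WTAP, hypoxia EVs were 58.5% of normoxia EVs and hypoxia cells 103% of normoxia cells. For YTHDC1 these shares were 51.1% in EVs and 101% in cells, and for YTHDC2 45.4% in EVs and 80.7% in cells. The olfactory receptor density was 8.49 in hypoxia EVs and 2.98 in normoxia EVs, so it was higher in the EV group where these genes were lower. After its subtraction and scaling to equal totals, WTAP (-0.34, limma adjusted p = 0.165) and YTHDC1 (-0.57, limma adjusted p = 0.157) no longer passed, and YTHDC2 did (-2.24, limma adjusted p = 0.000735). With equal totals alone, each of these genes lost its call.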

How the results depend on the processing

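Log2 values and gene counts follow, and the cause of each change was not tested. In cells, genes called higher numbered 2 of the 10 under TMM, edgeR and DESeq2, 3 under equal totals, equal totals without the construct genes and both density subtractions, and 0 in the fit of all 12 libraries. Genes called lower numbered 3 under both equal-total scalings, both subtractions, edgeR and DESeq2, and 0 in the fit of all 12 libraries. Over all genes in cells, 1383 were higher and 3871 lower. These became 2304 and 2043 (equal totals), 2485 and 1887 (without construct genes), 2127 and 1902 (density by exon length), 2237 and 1953 (by transcript length) and 59 and 25 (all 12 libraries), and edgeR on recovered reads called 1891 higher and 2606 lower, and DESeq2 2515 lower. YTHDF3 reversed to 0.012 without construct genes, 0.0034 (exon length) and 0.0028 (transcript length).

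In EVs, 0 of the 10 were lower under equal totals and both subtractions, and 1 without construct genes. Over all genes in EVs, 1586 were higher and 1846 lower. These became 4201 and 188 (equal totals), 3599 and 241 (without construct genes), 0 and 0 (density by exon length), 0 and 1 (by transcript length) and 3819 and 4419 (all 12 libraries). With edgeR 1026 were higher and 2477 lower. The higher count was 923 with a pseudocount of 0.5 and 2946 with 5, and DESeq2 called 2990 lower. Signs in EVs reversed under equal totals for METTL3 (0.22), METTL14 (0.27), ALKBH5 (0.11) and YTHDF3 (0.058), and without construct genes for METTL3 (0.19), METTL14 (0.24), ALKBH5 (0.079) and YTHDF3 (0.026). They reversed under subtraction by exon length for METTL14 (0.0040), FTO (-1.05), ALKBH5 (0.16) and YTHDF3 (0.036), and by transcript length for METTL3 (0.15), ALKBH5 (0.13) and YTHDF3 (0.021). FTO was -0.069 under TMM, -0.026 with edgeR and -0.077 with DESeq2.

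For EVs minus cells, 1 of the 10 was higher under equal totals, both subtractions and DESeq2, and without construct genes 2 were higher and 5 lower. VIRMA reversed to -0.16 under TMM and -0.14 with edgeR, and YTHDF2 to 0.081 without construct genes. With a minimum mean of 50, 3667 of all genes were higher, against 10414, and edgeR called 10143 higher and 8284 lower.

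For the difference of responses, 5 of the 10 were lower under TMM, edgeR, DESeq2 and a minimum mean of 50, 1 under both subtractions, and 0 under both equal-total scalings and with no filter. Over all genes, 107 were higher and 452 lower. These became 163 and 1190 (TMM), 475 and 151 (equal totals), 339 and 198 (without construct genes), 185 and 1479 (edgeR), 515 and 1674 (DESeq2) and 19 and 86 (no filter). The lower count was 279 by exon length, 215 by transcript length and 735 with a minimum mean of 50, and 239 were higher with a pseudocount of 5. YTHDF3 reversed to 0.061 (equal totals), 0.014 (without construct genes), 0.033 (exon length) and 0.018 (transcript length), FTO to -0.76 and YTHDF2 to 0.018 (both exon length).

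With the replicate block, 1 of the 10 was lower in the difference of responses (254 of all genes), 2776 of all genes were higher in hypoxia EVs, and YTHDF2 lost its EVs minus cells call (limma adjusted p = 0.0922). With the block, calls in hypoxia EVs were 2776 higher and 2633 lower, against 1586 and 1846 without it. Deviations of same-numbered samples correlated by -0.117 to 0.0614, and 2 of 6 cell and 3 of 6 EV libraries matched their own number best across conditions. With 3 libraries per group, these values cannot decide whether the numbers mark a shared culture.

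With single libraries left out, 1 to 2 of the 10 were higher in cells, 0 to 7 lower in EVs, 0 to 1 higher in EVs minus cells and 0 to 7 lower in the difference of responses. All-gene counts in EVs ran from 0 to 6144 higher and 7 to 3934 lower, and in the difference of responses from 2 to 2280 higher and 34 to 3158 lower. Ranges crossed 0 for WTAP (-0.0064 to 0.078) and YTHDC1 (-0.068 to 0.084) in cells, FTO in EVs (-0.25 to 0.15), VIRMA in EVs minus cells (-0.052 to 0.10) and METTL3 in the difference of responses (-0.024 to 0.42). The level per length of the highest gene over the lowest in normoxia cells was 18.8, and 13.6 by transcript length or 5.18 by coding length. EV values rest on as few as 47 reads.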
